A study of Mus musculus with 64 samples.

Results

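Lines of mouse embryonic stem (ES) cells kept in 2i medium were compared with fetal liver across autosomal genes. The comparison took the 4 libraries whose Stage label was ES and the 24 whose Stage label was fetal liver, 28 of the 64 libraries of the series, and 22066 autosomal genes of the 23338 gene symbols in each file. All samples were of the C57BL/6 strain. The 4 ES lines, 2 male and 2 female, were derived by the study from eight-cell embryos grown to blastocysts in 2i, and were then maintained with PD0325901, a MEK inhibitor, CHIR99021, a GSK3 inhibitor, and LIF in serum-free NDiff227 medium. The livers, 12 male and 12 female, were taken whole from fetuses of late gestation. RNA of both groups was made into TruSeq Stranded Total RNA libraries. The labels did not say which livers shared a litter or which lines shared a parent, so p-values measure the spread between these samples. Effects of culture, of cell type and of developmental stage cannot be told apart in this comparison.

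ES cells are the cultured counterpart of the pluripotent inner cell mass. Blocking MEK and GSK3 holds them in the naive state, with the transcription factors Pou5f1, Sox2 and Nanog at high levels, active beta-catenin and low MAPK signalling. The liver before birth is both a young liver, whose hepatoblasts secrete plasma proteins, and the main site of blood formation, where red cells mature around macrophages beside granulocyte, platelet and B cell precursors.

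Reads counted on genes ranged from 9857929 to 10386931 in the ES lines and from 5145371 to 8499603 in the livers, so that 3 reads corresponded to 0.262 to 0.285 CPM (read counts scaled to the library total, with TMM factors) in an ES line and to 0.356 to 0.596 CPM in a liver. The first principal component of log2 CPM held 89.5% of the variance and separated the groups. Levels over a group with 0 reads were bounded by 3 reads over the whole group, which is 0.0680 CPM for the ES lines and 0.0187 CPM for the livers. These limits cover counting error only. The 5 fetal livers numbered 11, 12, 14, 15 and 24 held more than 100 CPM summed over 9 genes of the exocrine pancreas, between 165 and 1235 CPM, against 9.54 to 49.4 CPM in the other 19 livers and at most 0.744 CPM in the ES lines.

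The labels were checked on the genes that define both tissues. The pluripotency factor Pou5f1 (chr17:35506032-35510777) stood at 724, 789.6, 847 and 833 CPM in the 4 ES lines and at 0.139 to 1.58 CPM with a median of 0.548 in the livers. The hepatoblast protein alpha-fetoprotein, Afp (chr5:90490714-90508907), stood at 0, 0.0875, 0.093 and 0.0949 CPM in the ES lines and at 12003 to 17600 CPM with a median of 14265 in the livers. The erythroid factor Gata1, which lies on the X chromosome and is not a member of the autosomal comparison, stood at 0.176, 0.0875, 1.02 and 0.759 CPM and at 69.8 to 110.0 CPM with a median of 87.1. No library of one group reached the range of the other for any of the 3 genes, and every library had the level of its label.

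Most of the autosomal genes tested differed between the groups. Of 13756 autosomal genes tested with edgeR's quasi-likelihood test, 3214 (23.4%) were higher in the ES lines and 4479 (32.6%) were higher in fetal liver at a Benjamini-Hochberg adjusted p below 0.05 and a log2 difference (ES minus fetal liver) beyond 1 in size, which is 55.9% in either direction. The median log2 difference over all tested genes was -0.05. With library totals alone in place of TMM the median was 0.10, and the counts were 3642 and 4237. Differences beyond a log2 of 5 were fewer among the ES-higher genes, 419, than among the liver-higher genes, 1558. Reads were absent from all 24 livers for 62 of the tested genes, and from all 4 ES lines for 554. These counts have unlike limits, since 3 reads over the group are 0.0680 CPM for the ES lines and 0.0187 CPM for the livers. At 0 reads the log2 also depends on the prior count, so the counts beyond a log2 of 5 share this limit. Without the 5 livers with pancreas transcripts, 3160 genes were higher in the ES lines and 4431 in fetal liver. In bulk tissue, fewer cells of a type and less RNA per cell cannot be told apart. A gene with 0 reads in a group could pass the filter on low counts only through the other group, so it could be called only as higher there. Autosomal members with 0 reads in all ES lines, tested or not, were 10 neutrophil, 8 erythroid, 7 macrophage, 6 pancreas and 5 megakaryocyte genes. There were 4 each in the secreted protein, urea cycle and stellate lists, 3 endothelial, 2 B lineage and 2 antigen presentation genes. The formative, glycolysis and epithelial adhesion lists had 1 each. Those with 0 reads in all livers were 4 pluripotency, 3 formative, 3 germline and 1 pancreas genes. Counts of list members are given of those that passed the filter on low counts. This was fewer than the autosomal members for the formative and germ layer list (8 of 16), germline (9 of 15), erythroid (23 of 27), Wnt (11 of 13), MAPK (13 of 14), urea cycle (12 of 14), DNA methylation (10 of 11), imprinted (23 of 24), RNA-binding (7 of 8), glycolysis (24 of 25) and exocrine pancreas (7 of 9) lists, and all were tested in the other lists.

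**Figure D1:**
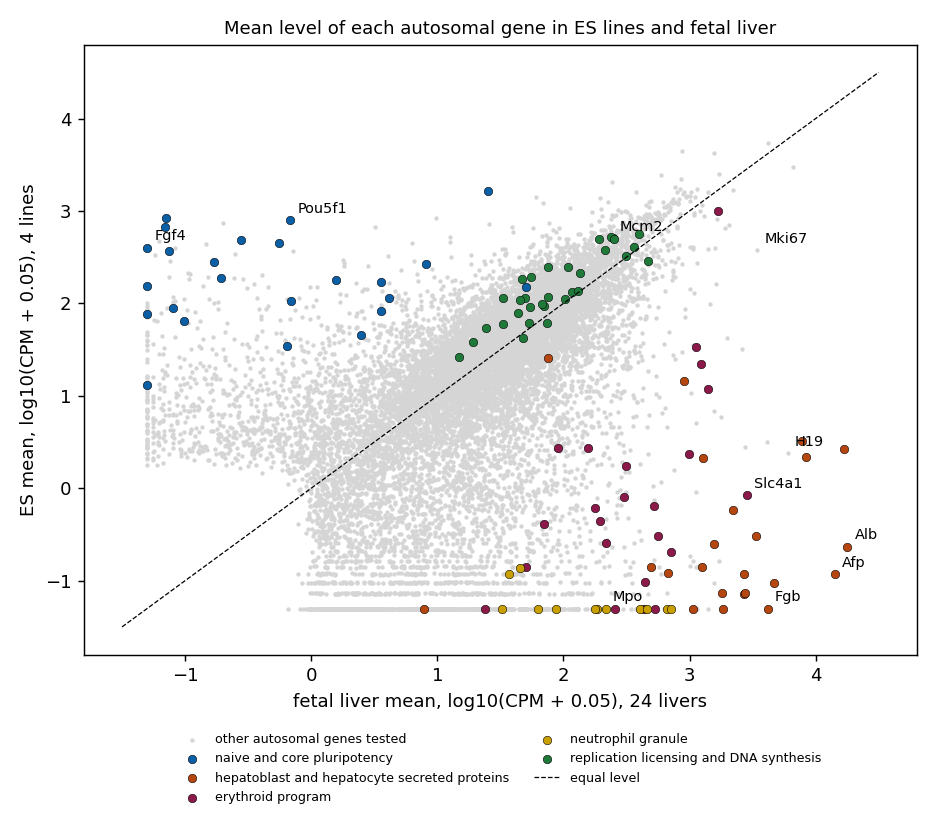
Mean level of each tested autosomal gene in the 24 fetal livers (x axis) and the 4 ES lines (y axis), both as log10(CPM + 0.05), with 5 gene lists in colour and the dashed line marking equal levels. Pluripotency genes lie at the upper left, plasma protein, erythroid and neutrophil genes at the lower right, and replication genes close to the line; genes with 0 reads in a group lie along its lowest value.

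The 10 largest ES-higher differences among genes whose ES mean reached 50 CPM were in Fgf4, Dppa5a, Tdgf1, Lefty2, Zfp534, Zfp42, Sox2, Trh, Calcoco2 and AU018091. Fgf4, the growth factor that ES cells secrete, stood at 386, 425, 415 and 384 CPM in the ES lines and had 0 reads in every liver, at least 21500-fold higher in ES. Zfp42 (also called Rex1), a marker of the naive state, stood at 152, 166, 146 and 146 CPM and also had 0 reads in the livers, at least 8140-fold higher. Dppa5a stood at 702, 889, 908 and 859.7 CPM in the ES lines against 3 reads over all livers. Lefty2, an inhibitor of Nodal signalling, varied most among the lines of these genes, with 456, 171, 728 and 525 CPM, yet no liver exceeded 0.159 CPM. Trh encodes thyrotropin-releasing hormone, a neuropeptide precursor, and stood at 402, 350.4, 494 and 348 CPM in the ES lines.

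The 10 largest liver-higher differences were in Fgb, Afp, Ttr, Apoh, Beta-s, Alb, Plg, Fga, C3 and Itih3, of which all but the beta-globin gene Beta-s encode proteins that hepatocytes or hepatoblasts secrete into plasma. Fgb, the fibrinogen beta chain, had 0 reads in the 4 ES lines and 2706 to 5159 CPM with a median of 4186 in the livers, at least 61300-fold higher in liver. Ttr, the thyroxine and retinol carrier transthyretin, had 0 reads in ES and 1600.3 to 2277 CPM with a median of 1868, at least 27500-fold. Afp rested on 3 ES reads, and its ratio of liver to ES was 207000-fold, with a 95% counting interval of 70800 to 1000000. Beta-s also had 0 ES reads and stood at 1315 to 2176 CPM with a median of 1786.

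All 24 tested genes of a pluripotency list were higher in ES, beside the 23.4% of all tested genes, with a median log2 difference of 9.84. The list's summed level was 6755 to 8166 CPM in the ES lines and 81.5 to 132 CPM in the livers. Nanog, a core pluripotency factor, stood at 446, 461, 508 and 509.8 CPM against 0 to 0.721 CPM with a median of 0.181, and Sox2, the partner of Pou5f1 on DNA, at 349.7, 330.5, 411 and 389 CPM against 0 to 0.289 CPM. Neither gene overlapped between the groups (Nanog log2 10.92 ± 0.115 SE, Sox2 log2 13.11 ± 0.117 SE, edgeR), and overlap was not counted over all tested genes. The highest CPM of the list, which is not corrected for gene length, was that of the naive-state factor Tfcp2l1, with a mean of 1645 CPM in ES and 25.2 CPM in liver. The smallest difference of the list was in Nr5a2, a nuclear receptor that liver also uses, at log2 1.56. Tbx3, which is on both the pluripotency list and the hepatocyte factor list, followed the former, with 75.8, 128, 128 and 123 CPM in the ES lines and 1.74 to 12.3 CPM with a median of 3.23 in the livers.

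Genes of the formative state and the germ layers, which mark exit from naive pluripotency, were mostly low in both groups, and 8 of 16 passed the filter on low counts. Of the 8, the 4 higher in ES were Dnmt3b, Zic2, T and Eomes, and the 3 higher in liver were Gata6, Sox17 and Foxa2. The shares over all tested genes were 23.4% and 32.6%. Otx2, a formative factor, stood at 2.63, 3.94, 1.77 and 0.949 CPM in the ES lines with 0 reads in the livers, and Fgf5, a marker of the primed epiblast, at 0.439, 0.7, 0.651 and 0.759 CPM against 0 to 0.237 CPM. Neither was tested. T, or brachyury, a gene of early mesoderm, averaged 3.12 CPM in ES, and Zic2, a factor of pluripotent and neural cells, 35.5 CPM in ES with 0 reads in liver. Without the filter on low counts, 10 members were higher in ES. The liver-higher genes have roles in endoderm. Foxa2 stood at 0.351, 0.0875, 0.093 and 0.285 CPM in the lines and at 12.4 to 18.1 CPM with a median of 16.4 in the livers.

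Targets of the pathways that the 2 inhibitors act on were read next. Among 11 tested Wnt and beta-catenin targets, 5 were higher in ES and 3 in liver, beside 23.4% and 32.6% of all tested genes. The ES-higher genes were Axin2 (log2 5.03), Sp5 (9.42), Tcf7 (2.84), Cdx1 (5.32) and Notum (8.47), and the liver-higher genes were Rnf43 (-5.16), Lgr5 (-3.75) and Nkd1 (-2.68). Axin2, a negative-feedback target, stood at 72.8, 53, 43.7 and 46.9 CPM in the ES lines and 0.478 to 4.62 CPM with a median of 1.29 in the livers. Rnf43, a ubiquitin ligase that removes Wnt receptors, went the other way, at 0.703, 0.525, 0.651 and 0.285 CPM against 15.4 to 26.6 CPM with a median of 19.3. Lef1, a nuclear partner of beta-catenin, was not called at log2 -0.80, with an ES range that covered 1.21 to 7.47 CPM. Without ES line 1 it was called at -1.27.

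Of 13 tested feedback and immediate-early genes of MAPK signalling, 6 were higher in liver and 3 in ES, beside 32.6% and 23.4% of all tested genes. Dusp6, the phosphatase that switches off ERK, stood at 9.75, 13.9, 8.28 and 7.78 CPM in ES and at 90.0 to 138 CPM with a median of 107 in liver (log2 -3.46 ± 0.132 SE). Egr1, Phlda1, Spry4, Spred1 and Ier3 were the others higher in liver. Those higher in ES were Etv5 at 523, 412, 434 and 463 CPM in ES against 9.01 to 16.9 CPM with a median of 12.3, Spry2 at 66.2, 79.2, 73.4 and 80.4 CPM against 3.61 to 9.38 CPM with a median of 5.38, and Etv4. Etv4 and Etv5 are ETS-family factors, and Spry2 is a feedback inhibitor. Its relative Spry4 had the opposite sign, at log2 -2.73 against 3.70.

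**Figure D2:**
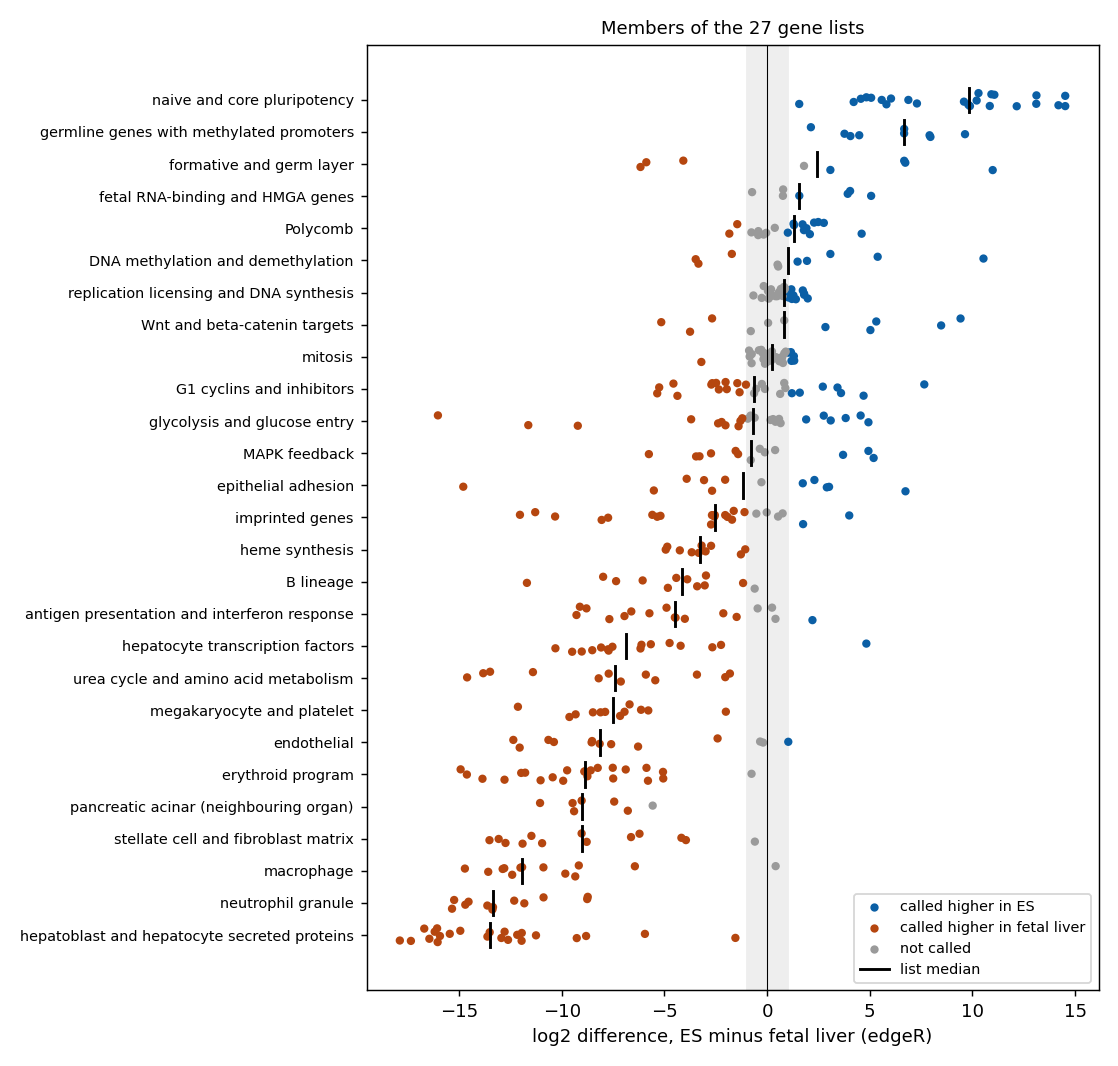
log2 difference (ES minus fetal liver, edgeR) of each tested member of the 27 gene lists (rows), with list medians as black bars and the range of -1 to 1 shaded. The pluripotency and germline lists lie wholly to the right, those of secreted proteins, urea cycle, heme, neutrophil and platelet genes wholly to the left, and replication and mitosis genes between -0.88 (Nusap1) and 1.98 (Rfc5) apart from Mki67 at -3.20.

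All 23 tested genes for proteins secreted by hepatoblasts and hepatocytes were higher in fetal liver, beside the 32.6% of all tested genes, with a median log2 difference of -13.51. Their sum was 85495 to 115810.3 CPM in the livers, and 47.9 to 57.6 CPM in the ES lines. Albumin, Alb, the main plasma protein, stood at 0.0878, 0.175, 0.093 and 0.38 CPM in ES and 15399 to 21837 CPM with a median of 17739 in liver (log2 -16.45 ± 0.21 SE, adjusted p = 2.70e-34, edgeR). Apoa1, the protein of high-density lipoprotein, stood at 0.176, 0, 0 and 0.0949 CPM against 2234 to 3268 CPM with a median of 2698. The smallest difference was in Fetub, at log2 -1.55. Apoa2, with a mean of 14.6 CPM, and Fetub, with 25.9 CPM, were the members with the most reads in ES cells.

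The hepatocyte transcription factors were higher in liver for 15 of 16 tested genes, beside 32.6% of all tested genes, the exception being Tbx3. Hnf4a, the nuclear receptor central to hepatocyte identity, stood at 0.527, 0.875, 1.86 and 2.47 CPM in the ES lines and 270.1 to 367 CPM with a median of 303 in the livers. Ppara, the fatty-acid receptor, had the largest difference of the list at log2 -10.31.

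Genes of the urea cycle and of amino acid breakdown were all higher in liver (12 of 12 tested, beside 32.6% of all tested genes). The median log2 was -7.42, or -6.06 with groups at 0 reads set at their bound. Cps1, the enzyme that commits ammonia to urea, was read 2 times in the ES lines and stood at 1014 to 2235 CPM with a median of 1516 in the livers. Arg1, the last enzyme of the cycle, stood at 0.264, 0.0875, 0.093 and 0 CPM against 226 to 428 CPM with a median of 345. Asl, the enzyme before it, differed little by comparison (log2 -2.04) and had a mean of 20.9 CPM in ES. Ass1 had 12 reads over the 24 livers and was not tested. Reads without a unique position were not counted, and Ass1 has processed copies elsewhere in the genome, so its count is uncertain.

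**Figure D3:**
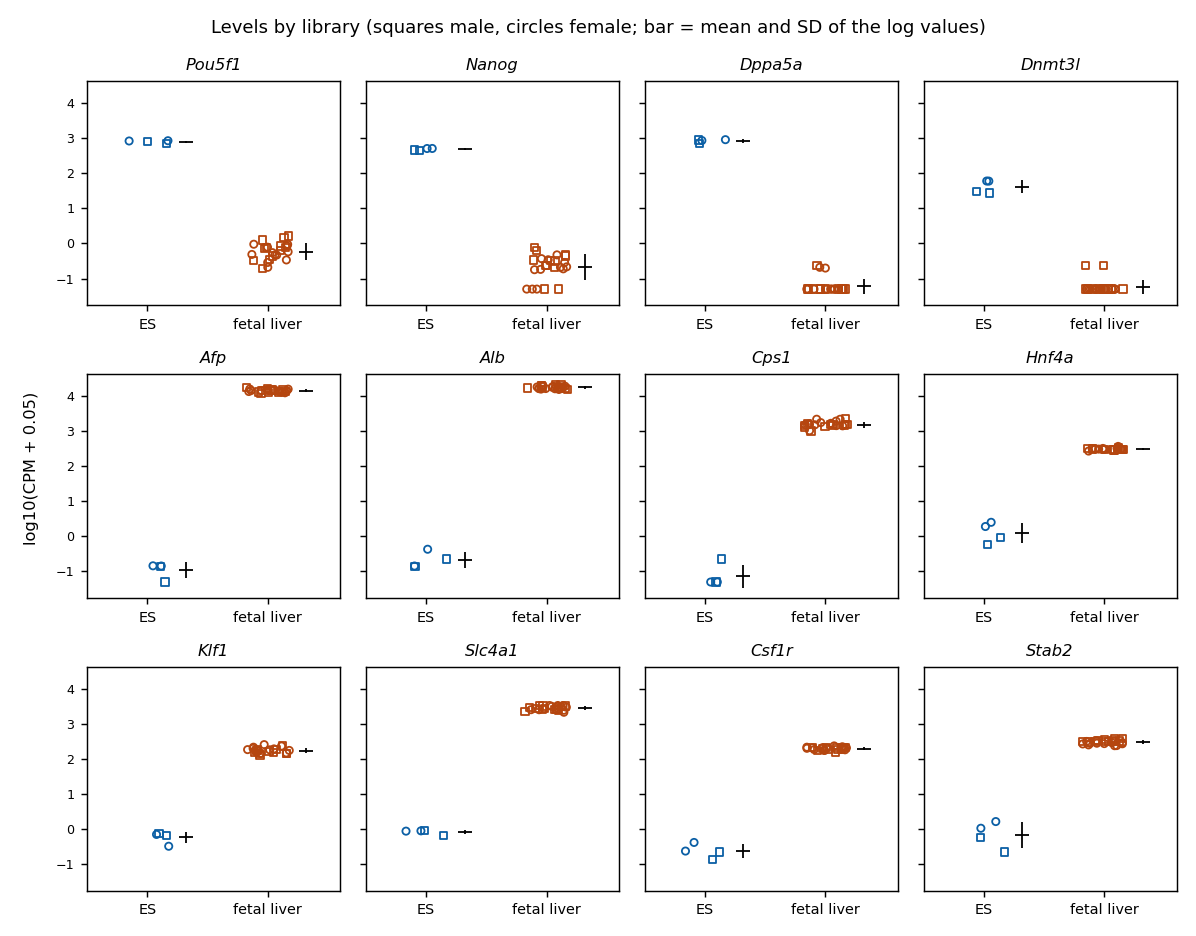
Levels of 12 genes in each library as log10(CPM + 0.05) on 1 scale, ES lines in blue and fetal livers in orange, squares male and circles female, with the mean and SD of the log values at the right of each group. The top row shows genes high in ES, the lower rows genes high in liver, and in each panel the groups are apart. The 12 genes were chosen from lists with large differences, and overlap was not counted over all tested genes.

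The erythroid list was higher in liver for 22 of 23 tested genes, beside 32.6% of all tested genes, with a median log2 of -8.88 (-8.75 at the bound). Klf1, the master factor of late red cells, stood at 0.615, 0.7, 0.279 and 0.664 CPM in ES and 126 to 259 CPM with a median of 177 in liver. Slc4a1, the band 3 anion exchanger of the red cell membrane, stood at 0.878, 0.612, 0.837 and 0.854 CPM against 2168 to 3382 CPM with a median of 2861 (log2 -11.79 ± 0.21 SE). The groups did not overlap in either gene, and overlap was not counted over all tested genes. The exception was Tfrc, the transferrin receptor that dividing cells of any kind use for iron uptake, with means of 997 CPM in ES and 1694 CPM in liver, which was not called at log2 -0.76. Genes of the membrane skeleton were also read in ES cells, where the spectrin gene Spna1 averaged 22.1 CPM and Epb4.1, of protein 4.1, 33.4 CPM. Hba-a1, an alpha-globin gene, had 1 read over the 28 libraries. Its near-identical copy takes the same reads, reads without a unique position were dropped and duplicate reads were removed before counting, so globin levels, that of Beta-s included, are uncertain.

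The enzymes of heme synthesis were all higher in liver (10 of 10, beside 32.6% of all tested genes), with a smaller median of -3.26. Every member was also expressed in ES cells. Fech, which inserts the iron, stood at 30.2, 26.9, 30.6 and 32.1 CPM in ES and 650.5 to 1020.4 CPM with a median of 871 in liver. Alas1, the housekeeping form of the first enzyme, differed least (log2 -1.07).

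Members of the macrophage, neutrophil, megakaryocyte and B lineage lists averaged under 3 CPM in ES cells apart from Cd68, Vwf, Ebf1 and Cd24a. Macrophage genes were higher in liver for 12 of 13 tested genes, beside 32.6% of all tested genes. Their summed levels were 1379 to 2198 CPM in the livers and 13.8 to 33.3 CPM in the ES lines, and 7 members were at 0 in all ES lines. Emr1, which encodes F4/80, had 0 reads in ES and 98.8 to 156 CPM with a median of 129 in liver, at least 1910-fold higher. Csf1r, the receptor that macrophages need, stood at 0.176, 0.0875, 0.372 and 0.19 CPM against 157 to 238 CPM with a median of 208. Cd68, a lysosomal protein, was the member not called, with 19.2 CPM in ES and 14.4 CPM in liver.

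Neutrophil granule genes were higher in liver in 12 of 12 cases, beside 32.6% of all tested genes. Of them 10 had 0 reads in ES and passed the filter only through the livers, so their direction was fixed in advance. Ngp stood at 244 to 585 CPM with a median of 419 in liver and Mpo, myeloperoxidase, at 157 to 277 CPM with a median of 217, both with 0 ES reads and hence at least 6000-fold and 3180-fold higher. Megakaryocyte and platelet genes were higher in liver in 12 of 12 cases, beside the same 32.6%, and for the 5 with 0 ES reads that direction was likewise fixed. Pf4, platelet factor 4, rested on 2 ES reads and stood at 28.2 to 81.8 CPM with a median of 48.4 in liver. Vwf, which endothelium also makes, was their least different member at log2 -2.01, with a mean of 15 CPM in ES. For B lineage genes the count was 11 of 12, again beside 32.6%. Cd24a, a surface protein that other cells make too, held most of the list's reads in ES, with means of 98.3 CPM in ES and 1450.3 CPM in liver, and Ebf1, a B cell factor, was not called at 8.6 and 13.3 CPM. Cd79a, a part of the B cell receptor, stood at 3.9 to 11.9 CPM with a median of 7.45, and Vpreb1, of the surrogate light chain, at 5.63 to 13.2 CPM with a median of 9.83 against 0.527, 0.875, 1.77 and 0.57 CPM in ES.

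Endothelial genes were higher in liver for 10 of 13 tested genes, beside 32.6% of all tested genes. Stab2 and Lyve1, receptors of the sinusoid lining, stood at 242 to 397 CPM with a median of 312 and at 68.8 to 110.2 CPM with a median of 91.3, and Lyve1 had 0 ES reads. Pecam1 went against the list, with 128, 97.9, 106 and 106 CPM in ES and 44.8 to 63.4 CPM with a median of 52.7 in liver, and its log2 of 1.03 fell to 0.94 and was not called without ES line 1. It lay between 0.88 and 0.98 in 6 further alternatives. Tek (log2 -0.34) and Eng (log2 -0.20), a receptor and a co-receptor of vessels, were not called. Genes of stellate cells and matrix were higher in liver for 12 of 13, beside the same 32.6%. Col3a1, a collagen, was read once in ES and stood at 348 to 1003 CPM with a median of 427, with the highest liver more than 2 times the median. Des, desmin, was the member not called (log2 -0.60).

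Every gene of the replication and mitosis lists was read in every library of both groups. Replication genes were called higher in ES for 13 of 32, beside 23.4% of all genes, and in liver for 0, beside 32.6%, with a median log2 of 0.83. Mcm2, of the replicative helicase, stood at 464, 515, 516 and 524 CPM in ES and 195 to 301 CPM with a median of 242 in liver. Its log2 of 1.04 was at the threshold, and it was not called without ES line 2 (0.96) or 4 (1.00), with RLE size factors or DESeq2 (0.99 in both), in the female-labelled libraries alone (0.99), over all 64 libraries (0.93), with a filter of at least 1 CPM on average in both groups (0.89) or with edgeR's glmTreat. Pcna, the sliding clamp, overlapped, at 409, 434, 404 and 401 CPM against 281 to 459 CPM with a median of 361 (log2 0.18, adjusted p = 0.0581, edgeR), as did Rrm2, of ribonucleotide reductase (log2 0.04).

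Of 32 mitosis genes, 5 were higher in ES (Ccnb1, Bub1, Cdc20, Kif20a and Spc24) and 1 was higher in liver. Both shares were below the 23.4% and 32.6% of all tested genes, and the median log2 was 0.26. Cdk1, the mitotic kinase, and Aurkb, of the chromosomal passenger complex, were not called (log2 0.54 and -0.01). The liver-higher gene was Mki67, which encodes the Ki-67 antigen used to mark cycling cells, with 276, 381, 412 and 426 CPM in the ES lines and 2516 to 4195 CPM with a median of 3501 in the livers (log2 -3.20 ± 0.132 SE, adjusted p = 1.01e-20, edgeR). The lowest liver was above the highest ES line.

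Adult liver gave a reference for tissue with few cycling cells, in CPM without TMM scaling. The summed replication list was 7067 to 7488 CPM in ES, 3299 to 5059 in fetal liver and 286 to 427 in adult liver. The summed mitosis list was 7839 to 8049 in ES, within the 7270 to 10523 of fetal liver, and 41.0 to 174 in adult liver. Mki67 by itself was 302 to 456 in ES, 2526 to 4012 in fetal liver and 2.94 to 18.2 in adult liver. It is part of the mitosis sum and weighed more in it in fetal liver. Its median was 3469 beside 9100 for the sum in fetal liver, and 433 beside 7995 in ES. Whether the mitosis sums overlap without this gene was not tested, since the sum without it was not taken. ES cells and fetal liver were thus both far above adult liver on every one of these measures, and their own order depended on the gene.

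**Figure D4:**
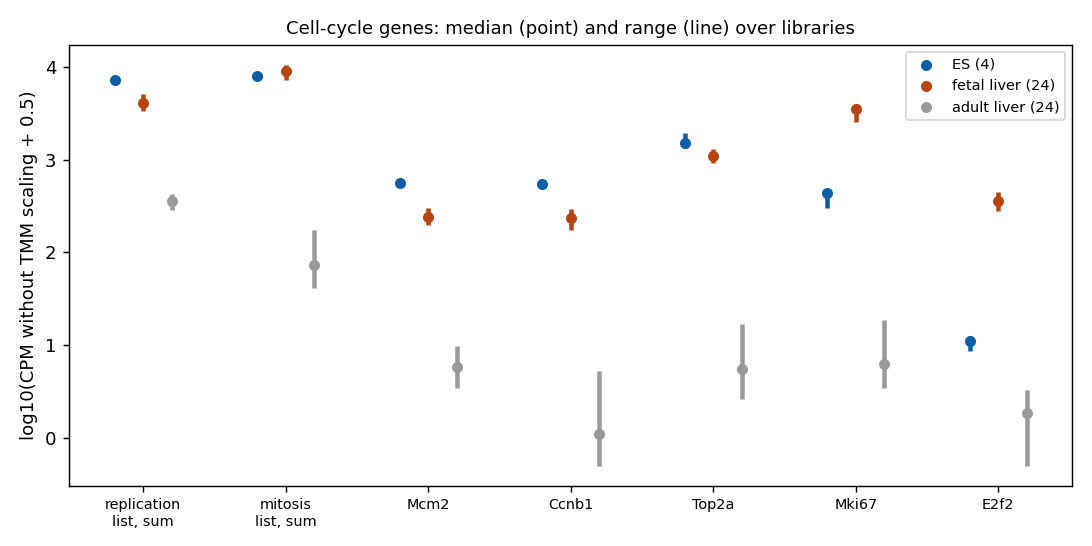
Cell-cycle genes in ES lines (4), fetal livers (24) and adult livers (24) as log10(CPM without TMM scaling + 0.5), with the median as a point and the range over libraries as a line. ES and fetal liver lie above adult liver throughout; Mcm2 and Ccnb1 are higher in ES, and Mki67 and E2f2 are higher in fetal liver.

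Genes that control entry into the cycle had log2 differences from -5.35 to 7.65. Of 27 tested, 13 were higher in liver and 7 in ES, beside 32.6% and 23.4% of all tested genes. Cdkn1c, the imprinted p57 inhibitor, stood at 5.09, 5.51, 8.0 and 8.16 CPM in ES and 228 to 364 CPM with a median of 256 in liver, and Ccnd2, a D-type cyclin, at means of 2.92 and 60.8 CPM. The retinoblastoma genes Rb1, Rbl1 and Rbl2 were higher in liver (log2 -2.72, -1.03 and -1.45). E2f2 was also higher in liver (log2 -5.26), while E2f1 and E2f3 were not called. The ES-higher genes were Cdk2, Cdk4, Cdkn1a, Cdkn2a, Cdkn2b, Mycn and Mycl1. Cdkn2a, which encodes p16 and p19Arf, stood at 9.4, 10.8, 7.07 and 6.93 CPM in ES and at most 0.289 CPM in liver. Ccnd1 and Ccne1, of the G1 cyclins, were not called (log2 0.83 and 0.63).

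Of 10 regulators of DNA methylation, 5 were higher in ES and 3 in liver, beside 23.4% and 32.6% of all tested genes. Dnmt3l, the cofactor of de novo methylation, stood at 29.5, 27.2, 60.1 and 59.8 CPM in ES, lower in the 2 male lines than in the 2 female lines, and was read 2 times over all livers. Tet1, which oxidizes 5-methylcytosine, stood at 489, 628, 506 and 484 CPM against 8.25 to 24.6 CPM with a median of 12.3. Dnmt3b, Tet2 and Uhrf1 were also higher in ES, and Dnmt3a, Tet3 and Mbd2 in liver. Dnmt3a stood at 44.7, 16.5, 38.1 and 39.8 CPM in ES and 97.7 to 139 CPM with a median of 112 in liver. The maintenance enzyme Dnmt1 was higher in every ES line than in any liver, at 472, 468, 481 and 465 CPM against 266 to 391 CPM with a median of 323, but at log2 0.54 did not reach 2-fold. Germline genes, whose promoters are methylated in somatic tissue, were higher in ES for all 9 that could be tested of 15 autosomal members, beside 23.4% of all tested genes. All 15 were higher when no filter on low counts was used. The list summed to only 1.59 to 6.50 CPM in the livers, and 3 of its autosomal members had 0 reads in all of them. Members near 0 in the livers could pass the filter only through the ES lines, so the count of 9 is no free test of direction. Dazl, an RNA-binding protein of germ cells, stood at 11.3, 11, 12.5 and 17.9 CPM and Ddx4, the germ cell helicase, at 12.7, 18.3, 8.83 and 11.5 CPM, and the highest CPM was that of Hormad1, a meiotic chromosome protein, at 61.7 CPM.

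Polycomb genes, which silence developmental genes, were higher in ES for 11 of 19 and in liver for 2, among them Phf19. The shares over all tested genes were 23.4% and 32.6%. Eed, a core subunit of PRC2, stood at 241, 285, 265 and 266 CPM against 44.3 to 62.5 CPM with a median of 54.1, and Jarid2, which recruits it, at 346, 296, 329 and 336 CPM against 74.7 to 106 CPM with a median of 87.4. The catalytic subunits Ezh2 (log2 0.37) and Ezh1 (log2 -0.05) were not called. The largest differences were in Cbx7 (log2 4.60) and Mtf2 (log2 2.76).

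Imprinted genes were mostly higher in liver, 17 of 23, beside 32.6% of all tested genes. Zdbf2 and Usp29 were higher in ES, and Mirg, Phlda2, Ndn and Zrsr1 were not called. H19, a noncoding RNA, stood at 1.76, 2.8, 1.86 and 3.04 CPM in ES and 3819 to 7182 CPM with a median of 6252 in liver, and its neighbour Igf2, a fetal growth factor, at 0.791, 0.962, 0.837 and 0.854 CPM against 863 to 1796 CPM with a median of 1090.2. The 2 genes of this locus, which are expressed from opposite parental alleles, were both at most 3.04 CPM in ES. Not all imprinted genes were low in ES: Peg3 stood at 239, 282, 115 and 164 CPM, with line 3 the lowest, against 489 to 751 CPM in liver, and Rian at a mean of 228 CPM. Zdbf2 stood at 89.7, 124, 59 and 67.5 CPM in ES and 2.54 to 13.2 CPM with a median of 4.71 in liver.

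Genes of the fetal RNA-binding proteins were higher in ES for 4 of 7 and in liver for 0, beside 23.4% and 32.6% of all tested genes. Lin28a, which blocks let-7 maturation, stood at 231, 184, 155 and 131 CPM against 5.05 to 16.6 CPM with a median of 10.4, and Igf2bp1, an mRNA-binding protein of fetal tissues, at 763, 479, 572 and 583 CPM against 29 to 62.2 CPM with a median of 39.4. Trim71 was the member with the largest difference (log2 5.06). Lin28b (log2 -0.73), Igf2bp3 and Hmga2 were not called, and without ES line 1 Lin28b was called at -1.04 and Hmga2 at 1.04.

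Of 24 glycolysis genes, 6 were higher in ES and 10 in liver, beside 23.4% and 32.6% of all tested genes. Pkm2 (Pkm), the pyruvate kinase of growing cells, stood at 1999, 1951, 2202 and 2156 CPM in ES and 178 to 301 CPM with a median of 248 in liver, and Pklr, the form of liver and red cells, at 0.264, 0.612, 0.372 and 0.475 CPM against 193 to 343 CPM with a median of 271. Slc2a3, a high-affinity glucose transporter, stood at 1207, 1345, 1659 and 1495 CPM against 46.4 to 89.3 CPM with a median of 60.2, and Slc2a2, the transporter of hepatocytes, at 0, 0, 0.093 and 0.0949 CPM against 159.7 to 234 CPM with a median of 194. The groups did not overlap for any of the 4 genes. Overlap was not counted over all tested genes, of which 12295 of 13756 had an adjusted p below 0.05 at any fold (edgeR).

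In 16 pairs of related genes, chosen with earlier results of these data known, the share of the first member was taken in the pair's summed CPM per kilobase of exon. It went from above 50% in every ES line to below 50% in every liver for 5 pairs, and the other way for 1. Lin28a took 91.6 to 94.2% of the Lin28a and Lin28b level in ES and 19.8 to 46.6% in liver. Dnmt3b took 87.8 to 93.5% with Dnmt3a in ES and 18.3 to 28.3% in liver. Tet1 against Tet2, Klf4 against Klf1 and Mycn against Myc were the other pairs of the first kind. Tet1 was near 50% in ES, at 52.65 to 62.0% against 8.05 to 14.9% in liver, and both Tet genes were called higher in ES. Mycn took 94.8 to 97.5% in ES and 5.81 to 35.3% in liver. Gata4, a factor of endoderm and heart, was the first member of the pair that went the other way, with 16.1 to 48.5% of the level shared with Gata2, a factor of blood progenitors, in ES and 80.05 to 95.2% in liver. Both were low in ES, where Gata4 averaged 0.631 and Gata2 1.225 CPM per kilobase. Sall4 with Sall1 and Igf2bp1 with Igf2bp2 had medians above 50% in ES and below it in liver, with livers on both sides. Ezh2 led Ezh1 in every library, and took 77.9 to 87.4% in ES and 72.6 to 84.4% in liver.

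**Figure D5:**
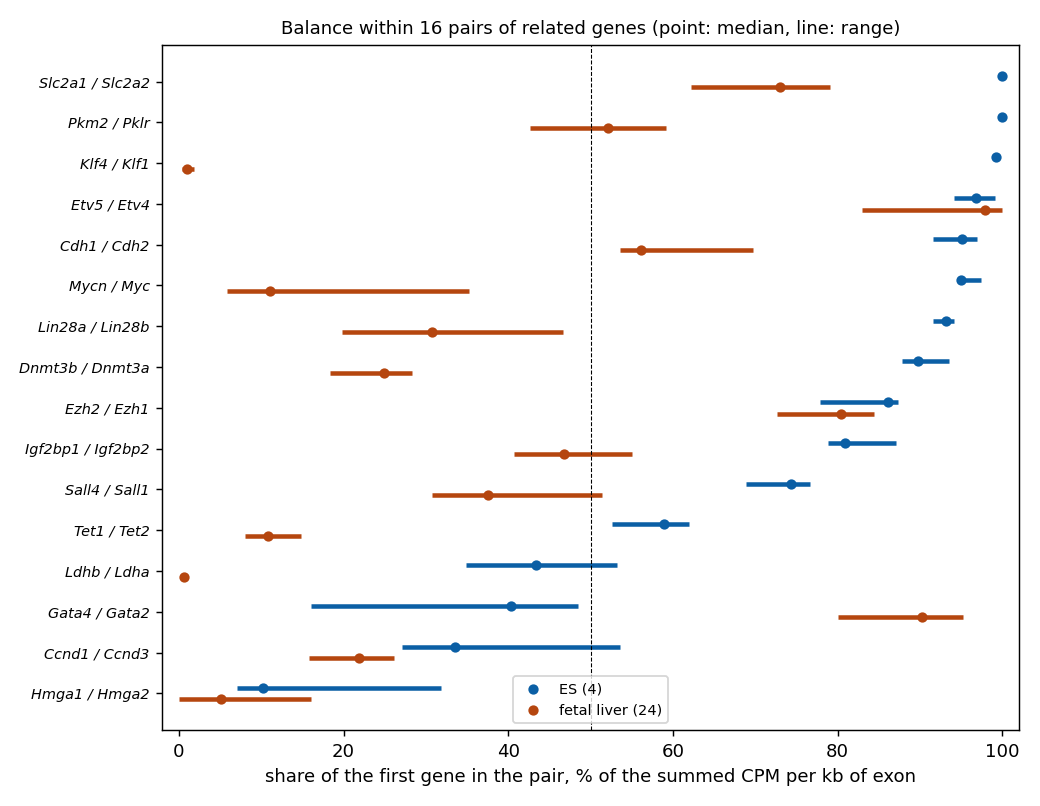
Share of the first gene of each of 16 pairs in the pair's summed CPM per kilobase of exon, in percent, for ES lines (blue, 4) and fetal livers (orange, 24), with the median as a point and the range as a line. Klf4 falls from over 99% in ES to under 2% in liver, and Ezh2 and Etv5 keep similar shares in both groups.

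Epithelial adhesion genes went both ways, 5 higher in ES and 6 in liver of 12, beside 23.4% and 32.6% of all tested genes. E-cadherin, Cdh1, stood at 438, 426, 412 and 338 CPM in ES against 97.2 to 179 CPM with a median of 117, and N-cadherin, Cdh2, at 18.3, 15.1, 30.7 and 34.8 CPM against 81.8 to 123 CPM with a median of 101. Cldn1 had the largest liver-higher difference (log2 -14.80), with 0 reads in ES, so that this value depends on the prior count. Epcam overlapped between the groups, since 1 liver reached 193 CPM against a liver median of 2.69. Antigen presentation and interferon genes were higher in liver for 13 of 17, beside 32.6% of all tested genes. B2m, the light chain of class I molecules, stood at 8.7, 10.1, 9.3 and 9.3 CPM in ES and 224 to 312 CPM with a median of 278 in liver, and H2-K1, a heavy chain, at 11.7, 5.25, 4.0 and 4.08 CPM against 105 to 192 CPM with a median of 147. Ifitm3, also known from germ cell precursors, was higher in ES, at 114, 91.4, 104 and 98.2 CPM against 16.2 to 36 CPM with a median of 21.2.

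The exocrine pancreas list gave the markers of a neighbouring organ. In the livers it was called higher for 6 of 7 genes, beside 32.6% of all tested genes. However, Ctrb1, a digestive protease, ranged from 0 to 401 CPM with a median of 0.439, and the summed list passed 100 CPM in only the 5 livers named above. Without each ES line in turn 1 gene was called, and without the 5 livers above 100 CPM 2 were. The part of these transcripts in the other liver-higher counts was not tested, beyond the count of 4431 genes without those livers given above.

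Promoters were read for the lists above, as 300-base windows from RefSeq on GRCm38.p6 that run from 250 bases before to 50 bases after a gene's start. The first window listed for a gene was used, and one was matched for 10651 of the 13756 tested genes. The ratio of observed to expected CpG had a median of 0.75 over all windows, 0.75 over ES-higher genes, 0.58 over liver-higher genes and 0.82 over genes not called. It was 0.50 for ES-higher and 0.30 for liver-higher genes past a log2 of 5, and 0.24 for the secreted proteins, 0.37 for the erythroid list and 0.16 for the macrophage list, against 0.86 for the Polycomb list and 0.88 for mitosis genes. Lists of 1 direction differed, with 0.75 for heme synthesis and 0.62 for hepatocyte factors, both mostly higher in liver, and 0.56 for the pluripotency list. Short motifs were searched on both strands. AGATAA, or with T in first place TGATAA, the core of GATA sites, was in 62.5% of 16 erythroid windows and 10.5% of all windows. It was also in 71.4% of 7 exocrine pancreas, 50% of 6 urea cycle, 44.4% of 9 megakaryocyte and 33.3% of 21 glycolysis windows. Among liver-higher genes past a log2 of 5 it was in 23% of windows. TTCCCGCC, an E2F core, was in 24% of 25 replication windows, 25% of 8 germline windows and 4.0% of all, and CCAAT in 76.9% of 26 mitosis windows, 80% of 5 formative windows and 38.6% of all. ATGCAAAT, the octamer of Pou5f1 and its relatives, was in 2 of 15 pluripotency windows (13.3%), 1 of 5 formative windows (20%) and 1.4% of all. It was also in 1 of 9 windows (11.1%) of the B lineage list and 1 of 9 of the stellate list. A match is a description of letters, not of a bound site.
The 250 bases before the start of 1 gene from each of 4 lists, on the coding strand, are shown to let these features be seen. Capitals mark matches to the motifs above, to the CACC box CCACCC or to the TATA box TATAAA on either strand. The Pou5f1 sequence (chr17:35505782-35506031, + strand) holds 4 CACC-box matches, 2 of which overlap, and 1 CCAAT match, Afp (chr5:90490464-90490713, + strand) a CCAAT and a TATA match, Klf1 (chr8:84901732-84901981, + strand) a GATA and a CCAAT match, and Mcm2 (chr6:88898781-88899030, - strand) a CCAAT match.
Pou5f1: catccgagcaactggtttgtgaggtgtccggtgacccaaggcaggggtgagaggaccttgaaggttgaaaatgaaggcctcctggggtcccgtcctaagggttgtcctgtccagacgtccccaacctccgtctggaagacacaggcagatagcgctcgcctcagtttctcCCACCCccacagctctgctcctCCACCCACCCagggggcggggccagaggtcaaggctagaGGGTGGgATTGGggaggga
Afp: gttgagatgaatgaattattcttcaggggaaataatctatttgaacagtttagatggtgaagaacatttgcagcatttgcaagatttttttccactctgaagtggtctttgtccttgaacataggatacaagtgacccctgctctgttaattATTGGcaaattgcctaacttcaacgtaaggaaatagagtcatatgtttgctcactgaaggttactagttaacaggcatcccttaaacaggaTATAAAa
Klf1: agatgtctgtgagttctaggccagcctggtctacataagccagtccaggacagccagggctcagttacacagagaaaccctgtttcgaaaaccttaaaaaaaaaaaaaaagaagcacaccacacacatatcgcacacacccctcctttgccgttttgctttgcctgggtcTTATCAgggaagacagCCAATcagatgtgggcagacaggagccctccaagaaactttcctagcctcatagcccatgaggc
Mcm2: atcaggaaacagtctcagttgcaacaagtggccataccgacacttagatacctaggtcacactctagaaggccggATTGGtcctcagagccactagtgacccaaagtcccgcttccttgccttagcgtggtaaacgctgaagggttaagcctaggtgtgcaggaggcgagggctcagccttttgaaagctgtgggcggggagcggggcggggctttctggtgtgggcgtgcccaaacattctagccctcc

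Some differences between ES and liver depended on the gender label. The stage by gender term was called for 717 of 13756 tested genes (5.21%, edgeR, adjusted p below 0.05 and log2 beyond 1). Each label stands for 2 ES lines only, so sex and line cannot be told apart. Apom, an apolipoprotein, stood at 0.264, 0.525, 9.58 and 7.78 CPM in ES lines 1 to 4, of which 1 and 2 are male, and at 443 ± 31.4 CPM in the 12 male and 475 ± 39.6 CPM in the 12 female livers (interaction log2, male minus female, -4.30, adjusted p = 4.65e-12, edgeR). Abca1, the cholesterol exporter, stood at 47.6, 25.3, 224 and 222 CPM in the ES lines, Itgb1, an integrin chain, at 115, 134, 268 and 257 CPM, and Anxa2, an annexin, at 2.9, 3.41, 9.3 and 9.68 CPM. In all 4 of these genes the 2 female lines were nearer to the liver. Sft2d2 went the other way, with 26.7, 26.9, 5.12 and 3.89 CPM in the ES lines and 77.4 ± 3.49 CPM in the 12 male and 79.2 ± 9.31 CPM in the 12 female livers.

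At the level of the whole library, more genes were detected in fetal liver at a matched depth, and fewer genes took more of the reads. After every library was thinned to 4981032 autosomal reads, 14496 to 14773 autosomal genes were detected in ES lines and 14885 to 15974 in livers (exact permutation test, two-sided, p = 1e-04, the smallest that this design allows, and 1e-04 after adjustment over 3 library measures). Without thinning the ranges were 15247 to 15466 and 14996 to 16241 genes (exact permutation test, p = 0.681). The 10 most abundant genes took 3.45 ± 0.0708% (SD, n = 4) of autosomal reads in ES and 9.31 ± 0.574% (n = 24) in liver (exact permutation test, p = 1e-04). Reads outside genes were 28.9 ± 1.95% in ES and 39.1 ± 4.1% in liver (exact permutation test, p = 1e-04). That share also differed within livers by gender label, at 39.9 to 49.0% in male and 34.1 to 38.1% in female livers, and the ES lines were below both ranges, at 29.3 to 31.3% in male and 26.7 to 28.2% in female lines. Its part in the other differences was not tested.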

How the data were processed

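RNA-seq was analysed for 4 ES lines and 24 fetal livers. The authors deposited counts: raw reads per gene by HTSeq, after alignment to mm10 with TopHat2 2.0.4 and Bowtie2 2.1.0 (versions from the submitters' processing notes), with duplicate reads removed by Picard and reads without a unique position dropped, which can undercount abundant or multi-copy genes. The HTSeq strand setting is not given in the sources used here. The rows no_feature, ambiguous, too_low_aQual, not_aligned and alignment_not_unique name no gene and were left out; the reads outside genes are given in the report. Of 23338 symbols 22066 were placed on autosomes of GRCm38, 1042 on sex chromosomes and 229 not placed; all were fitted and adjusted over. CPM used TMM factors. Groups were compared in R 4.3.3 with edgeR 4.0.16 (filterByExpr, robust quasi-likelihood F test, two-sided, terms gender and stage; called at adjusted p below 0.05 and log2 beyond 1), which recovered 195 of 200 genes simulated with a log2 of 2 among 14333, with 2 false calls. That simulation changed few genes, with equal numbers in each direction, whereas 55.9% of the tested autosomal genes were called here. It therefore does not give the error rate of this comparison. DESeq2 1.42.0 was an alternative. The log2 differences of genes with 0 reads in a group depend on the prior count and are no bound. Library measures used exact permutation tests (scipy 1.17.1). No 2 libraries of a group agreed within sampling noise (chi-square per gene at least 2.58).

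The gene lists, gene pairs and members were chosen with earlier results of these data known. Genes named are the 3 markers, the first 3 of each of 27 lists, up to 3 members called against a list's direction, both genes of 16 pairs, the 10 largest differences in each direction with at least 50 CPM, and the 5 smallest adjusted p of the stage by gender term; further members are named where a count is small or an extreme is given, after their values were seen. A few genes and pairs that these rules name are not reported here, though the list counts include them. Promoter motifs were chosen after the lists were seen.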

Additional observations from a re-analysis of the deposited data

Results flagged for a closer look

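Among 132 named autosomal genes that were tested, 13 had 1 ES line far from the other 3 (by Dixon's ratio of gap to range), where chance flags about 1 in 20 groups. In 6 of them both the lines' values and the group's level were at or near 0: Afp, with line 1 at 0 CPM, Cps1 with line 2 at 0.175, C1qa and Col3a1 with line 2 at 0.0875, Itih3 with line 4 at 0.0949 and Slc4a1 with line 2 at 0.612 CPM. ES line 1 stood apart in Tbx3 (75.8 CPM), Mcm2 (464), Phf19 (5.10), H2-K1 (11.7) and Ezh1 (78.4), and ES line 2 in Tet1 (628) and Klf4 (242.0 CPM).

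For 13 named genes the difference between ES and fetal liver depended on the gender label (edgeR interaction term, log2, male minus female). Of these, 5 were named for this term, and the other 8 were 6.3% of 127 named genes, beside 5.21% of all tested genes. It was negative, with male ES lines lower relative to male livers, for Hnf4a (-1.55), Stab2 (-2.12), Tet3 (-2.37), Cdh2 (-1.13), Hmga2 (-1.79), Gata2 (-1.30), Abca1 (-2.82), Apom (-4.30), Itgb1 (-1.05) and Anxa2 (-1.48), and positive for Phf19 (1.42), H2-K1 (1.35) and Sft2d2 (2.60). ES line 1 is the library that stood apart for Phf19 and H2-K1.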

How the results depend on the processing

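The number of called genes was 7693. It lay within 1.5 times this value in every alternative except a stricter filter (a mean of at least 1 CPM in both groups), which removes genes near 0 in one group, tested 10834 genes and left 4744 called, 2077 higher in ES and 2667 in liver; with an adjusted p of 0.1 and a log2 of 0.5 the ES-higher count rose to 4937. Without 1 ES replicate at a time it was 7699 to 7737, with 3122 to 3186 higher in ES and 4513 to 4615 in liver. DESeq2 called 7644. The replicate number in the titles did not pair the samples (correlations of same-numbered libraries -0.0327 to 0.0207); the replicate block called 7781. Without the 5 livers with pancreas transcripts, an alternative chosen after seeing the data, 7591 genes were called. The stage by gender count was 717 with DESeq2 and 718 with RLE size factors, and 717 as reported. The gap in detected genes was -556.2 at matched depth, -1014.1 with at least 10 reads, and -73.2 (exact permutation p = 0.681) without thinning; the top 100 genes gave a gap of -7.85 percentage points. No named gene that was called in the reported fit or in the refit changed sign. Signs were not compared for genes called in neither. Among these, without 1 ES line at a time, Rrm2 ran from -0.04 to 0.08 and Aurkb from -0.12 to 0.01. Of 2179 refits of 132 named genes, 2111 kept their side of the threshold, 47 lost it and 21 gained it. Of 912 refitted list counts 866 stayed within 1.5 times the reported count, and 17 of the other 46 came from the stricter filter. List medians moved by more than the spread between ES lines in 181 of 456 refits, and by over 1 log2 in 26, of which 11 were with the stricter filter; that of glycolysis genes went from -0.71 to 0.08 under it. Depth limits genes with few reads: for those at 0 in a group, a fold given as at least a value is a bound. Their log2 differences are not bounds.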
